A study of Mus musculus with 12 samples.

Results

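Genes of cholesterol synthesis and of its control were examined in mouse regulatory T cells (Treg) with and without Ikaros. The group was defined by name as Hmgcs1, Sqle, Insig1, Fdft1, Lss, Idi1, Srebf2 and Cyp51, and the rows of the expression table carrying these symbols were taken across all libraries. Of the 8 genes, 7 were matched among 36222 genes, each to 1 gene identifier, and the expression of Hmgcs1 was not analysed here. There were 12 RNA libraries, 3 for each of 4 groups, each library from Treg of an individual mouse. WT mice carried the Foxp3-YFP-Cre driver alone, and Ikzf1 conditional knockout (cKO) mice carried a floxed Ikzf1 allele together with the same driver, so that Cre acted only in cells expressing Foxp3 and both genotypes bore it. CD4+ YFP+ Treg, from spleen per the labels (the study's general purification methods name lymph nodes as well), were sorted and were either taken directly ex vivo or stimulated for 4 h by antibodies against CD3 and CD28 bound to the plate, each at 1 µg/ml. Per the study text the ex vivo cells came from age-matched mice of 6 to 8 weeks.

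Cholesterol is built from acetyl-CoA through mevalonate, farnesyl diphosphate and squalene, and the intermediates also supply the lipid tails of prenylated proteins. The pathway is switched on by SREBP2, the product of Srebf2, a membrane-bound transcription factor that SCAP escorts from the endoplasmic reticulum to the Golgi when sterols are scarce. When sterols are plentiful, INSIG proteins hold SCAP in the endoplasmic reticulum, and Insig1 is itself a target of SREBP. In T cells the pathway is known to support growth after receptor signalling, and in Treg it has been tied to suppressive function.

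The depth of a library was 8208659 to 20247649 reads on genes. Expression is given as TPM, a transcript level corrected for gene length and library size. A single gene model, Gm10800, took 17.7% to 39.8% of the TPM in the 6 ex vivo libraries and 32.6% to 55.9% in the 6 stimulated libraries, so deposited TPM of other genes were compared after scaling by the trimmed mean of M-values (TMM). Olfactory and vomeronasal receptor genes, 1555 in number and not known to be used by T cells, had a median of 0.566 to 1.17 TPM per library, and this level is taken as the background of the table. The targeted gene Ikzf1 was lower in cKO than in WT ex vivo (log2 difference -1.52, SE 0.11, limma adjusted p = 5.45e-05) and after stimulation (-1.29, SE 0.11, adjusted p = 0.000161), with no overlap of the groups. Of the stimulation controls, Egr2 and Myc rose in both genotypes (Egr2 by 1.48 and 1.31, Myc by 0.61 and 0.64 on the log2 scale), whereas Cd69 fell by 1.36 and 1.71. The call of Myc in WT was lost without WT stimulated replicate 2 (adjusted p = 0.0524). Nr4a1, an early target of receptor signalling, fell by 0.55 in WT (adjusted p = 0.0307) and differed by 0.16 in cKO, and ex vivo it was 0.78 lower in cKO (adjusted p = 0.0251). The former call was lost without WT ex vivo replicate 1 or 3 or any WT stimulated replicate, and the latter without WT ex vivo replicate 1 or 3 or any cKO ex vivo replicate. Il2ra rose by 0.65 in cKO (adjusted p = 0.00583) and differed by -0.15 in WT. Of these 5 controls, 2 therefore rose in both genotypes. With the 1 TPM filter the calls of Nr4a1, Myc and Il2ra were lost, as was that of Egr2 in cKO. The summed level of 7 Treg markers was 912 to 2455 TPM per library, against 8.65 to 22.0 TPM for 4 B cell markers, 8.84 to 16.3 TPM for 2 CD8 T cell markers, 10.1 to 47.8 TPM for 3 NK cell markers, 11.9 to 29.9 TPM for 5 myeloid markers and 1.16 to 5.58 TPM for 3 erythroid markers, of which Hba-a1 had no read in WT stimulated. WT ex vivo replicate 3 alone held Xist (179 TPM) and almost no Ddx3y (0.0970 TPM). Fewer cells of a type and less RNA per cell cannot be told apart in these libraries.

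The 7 genes spanned a wide range of levels. Srebf2 was the most abundant in all 4 groups, at means of 46.8 to 71.6 TPM, followed by Insig1, Cyp51, Sqle, Fdft1, Lss and Idi1, and this order of group means was the same in every group. In WT ex vivo the levels of neighbouring genes did not overlap except for Srebf2 and Insig1, although Srebf2 exceeded Insig1 within each of those 3 libraries. Sqle and Fdft1 overlapped in the other 3 groups, and in cKO stimulated Insig1 with Cyp51, Cyp51 with Sqle and Fdft1 with Lss also overlapped. The lowest gene, Idi1, lay between 1.12 and 2.62 TPM and exceeded the 90th percentile of the silent receptor genes in only 6 of 12 libraries, from 28 to 119 reads, whereas the other 6 genes exceeded it in all 12.

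**Figure D1:**
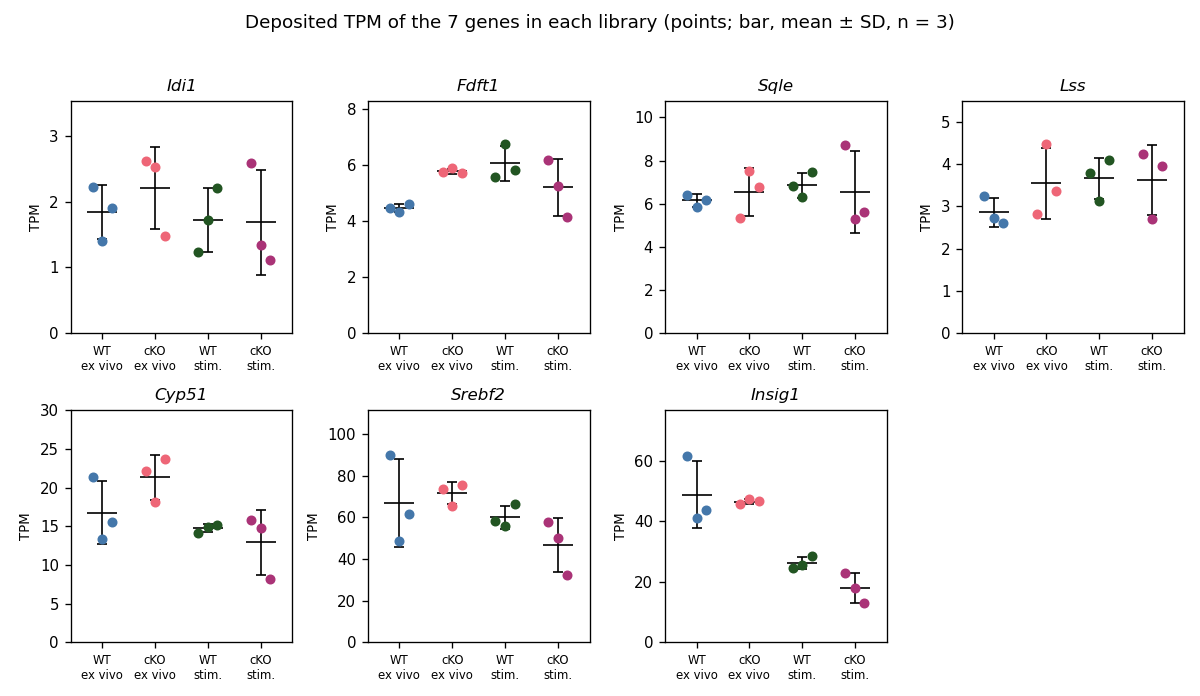
Deposited TPM (vertical axis, from 0, a separate scale for each gene) of the 7 genes in each library, by group on the horizontal axis; points are libraries, and the bar with whiskers is the mean ± SD (n = 3). Insig1 is the only gene of the 7 whose stimulated libraries, at 13.0 to 28.4 TPM, all lie below all ex vivo libraries, at 41.0 to 61.6 TPM.

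Srebf2 (ENSMUSG00000022463, mm9 chromosome 15, 81977696 to 82035806, plus strand) encodes SREBP2. It stood at 90.0, 48.9 and 61.8 TPM in WT ex vivo, 73.7, 65.6 and 75.4 TPM in cKO ex vivo, 58.2, 55.9 and 66.4 TPM in WT stimulated, and 57.9, 49.9 and 32.6 TPM in cKO stimulated. The groups of each genotype comparison overlapped, and WT ex vivo was the most scattered group. In cKO the stimulated libraries lay below the ex vivo libraries as deposited and overlapped them after scaling, and the opposite was seen in WT. Srebf2 differed by -0.31 with stimulation in WT (log2, SE 0.14, adjusted p = 0.110) and by -0.31 in cKO (SE 0.14, adjusted p = 0.0812), and neither passed the threshold of 0.05. In cKO the difference passed with limma voom on recovered reads (-0.32, adjusted p = 0.0422), with the 1 TPM filter (-0.85, adjusted p = 0.0494) and without cKO ex vivo replicate 2 (-0.41, adjusted p = 0.0372). Scaling factors from the 1 TPM filter put the median of the same 13318 genes at -0.23 with stimulation in WT and at -0.50 in cKO, and relative to that median Srebf2 differed by -0.35 in cKO.

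Insig1 (ENSMUSG00000045294, mm9 chromosome 5, 28397952 to 28405201, plus strand) encodes the endoplasmic reticulum anchor of SCAP, and it was the only member called in any comparison. It stood at 61.6, 41.0 and 43.9 TPM in WT ex vivo and at 45.6, 47.4 and 46.8 TPM in cKO ex vivo. The WT stimulated libraries held 24.6, 25.5 and 28.4 TPM and the cKO stimulated libraries 22.9, 17.8 and 13.0 TPM, from 246 to 673 reads per library. All 6 stimulated libraries were below all 6 ex vivo libraries, and the WT and cKO stimulated libraries did not overlap either. Insig1 fell by 1.05 on the log2 scale in WT (2.07-fold, SE 0.10, 95% interval -1.28 to -0.82, adjusted p = 3.57e-05) and by 1.05 in cKO (2.07-fold, SE 0.10, 95% interval -1.28 to -0.82, adjusted p = 2.78e-05). The fall passed in both genotypes under every alternative run, with the largest adjusted p 0.0168 in WT and 0.000885 in cKO. Of 13318 genes tested, 4.91% were as low or lower with stimulation in WT and 5.71% in cKO. Relative to the median gene, the difference of Insig1 lay between -1.04 and -1.07 with TMM factors of either filter and with TPM as deposited. An exact two-sided permutation test of 3 libraries against 3 gave p = 0.1 in each genotype, the smallest value this design allows.

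The share of Gm10800 and the level of the silent receptor genes were higher in the stimulated than in the ex vivo groups. Ratios within a library, which need no scaling, were therefore also taken, although an added background does not cancel in them. The ratio of Insig1 to Srebf2 was 0.745 ± 0.0833 in WT ex vivo and 0.654 ± 0.0594 in cKO ex vivo, against 0.436 ± 0.0179 after stimulation of WT and 0.384 ± 0.0229 after stimulation of cKO (SD, n = 3). The ratio of Insig1 to Sqle was 7.90 ± 1.47 and 7.23 ± 1.16 ex vivo, against 3.83 ± 0.219 and 2.77 ± 0.546 after stimulation, in WT and cKO respectively. The ratio of Insig1 to Cyp51 was 2.93 ± 0.126 and 2.22 ± 0.349 ex vivo, against 1.77 ± 0.0882 and 1.42 ± 0.198 after stimulation. All 3 ratios were lower in every stimulated library than in every ex vivo library. Insig1 fell 1.70-fold relative to Srebf2 in each genotype, 1.65-fold in WT and 1.56-fold in cKO relative to Cyp51, and 2.05-fold in WT and 2.62-fold in cKO relative to Sqle (exact permutation p = 0.1 for each, the smallest of 20 arrangements). In all, 4 ratios were tested in 4 comparisons, 16 tests, and with 3 libraries a group none of them can pass 0.05 before or after adjustment. Between genotypes the ratio of Insig1 to Cyp51 was 1.33-fold lower in cKO ex vivo and 1.26-fold lower after stimulation, and after stimulation those to Srebf2 and Sqle were 1.14-fold and 1.40-fold lower, each without overlap (exact permutation p = 0.1). The other genotype comparisons of ratios gave p of 0.3 to 0.7. Summed NK cell markers moved the same way, from 22.5 to 47.8 TPM ex vivo to 10.1 to 16.7 TPM after stimulation. Of these 3 markers it was Nkg7, a cytotoxic granule gene, whose mean was lower after stimulation (from 19.8 to 8.20 TPM in WT and from 41.0 to 8.09 TPM in cKO). The means of Ncr1 (1.72 to 3.08 TPM in WT, 2.17 to 2.97 TPM in cKO) and Klrb1c (2.05 to 2.21 TPM and 1.71 to 2.45 TPM) were higher. Summed myeloid markers went from 11.9 to 22.2 TPM ex vivo to 19.0 to 29.9 TPM after stimulation. Their part in the result was not tested.

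Cyp51 (ENSMUSG00000001467, mm9 chromosome 5, 4081145 to 4104746, minus strand) encodes lanosterol demethylase, the first step after ring closure. It stood at 21.3, 13.4 and 15.6 TPM in WT ex vivo, 22.2, 18.1 and 23.7 TPM in cKO ex vivo, 14.2, 14.9 and 15.2 TPM in WT stimulated, and 15.9, 14.8 and 8.13 TPM in cKO stimulated. In cKO the stimulated libraries were all below the ex vivo libraries in deposited TPM but overlapped them after scaling, and in WT the reverse held. The stimulation difference was -0.33 in WT (SE 0.16, adjusted p = 0.145) and -0.41 in cKO (SE 0.16, adjusted p = 0.0607). The difference in cKO passed with the 1 TPM filter (-0.93), with no filter (-0.92), with TPM as deposited (-0.72), with voom (-0.42, adjusted p = 0.0212), and without cKO ex vivo replicate 2 (-0.56) or cKO stimulated replicate 2 (-0.57). In WT it passed with voom alone (-0.36, adjusted p = 0.0490). Relative to the median gene, Cyp51 differed by -0.40 to -0.42 in cKO under the 3 scalings.

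Srebf2, Insig1 and Cyp51 are the members that varied together, and their promoters are shown for that reason, from RefSeq on GRCm38.p6, spanning 250 bases before to 50 bases after the annotated start, 5′ to 3′ on the strand of the gene. Capitals mark exact matches, on either strand, to the NF-Y box CCAAT, the Sp1 box GGGCGG, the E box CACGTG and the sterol regulatory element TCACNCCAC. The windows are chr15:82147019-82147318 (plus) for Srebf2, chr5:28071162-28071461 (plus) for Insig1 and chr5:4104648-4104947 (minus) for Cyp51.
Srebf2: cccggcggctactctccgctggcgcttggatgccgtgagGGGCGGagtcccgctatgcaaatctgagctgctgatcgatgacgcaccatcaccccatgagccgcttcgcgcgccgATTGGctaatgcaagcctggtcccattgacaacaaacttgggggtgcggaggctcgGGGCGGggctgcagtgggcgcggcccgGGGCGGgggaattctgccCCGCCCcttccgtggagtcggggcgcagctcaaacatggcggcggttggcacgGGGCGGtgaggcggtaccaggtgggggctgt
Insig1: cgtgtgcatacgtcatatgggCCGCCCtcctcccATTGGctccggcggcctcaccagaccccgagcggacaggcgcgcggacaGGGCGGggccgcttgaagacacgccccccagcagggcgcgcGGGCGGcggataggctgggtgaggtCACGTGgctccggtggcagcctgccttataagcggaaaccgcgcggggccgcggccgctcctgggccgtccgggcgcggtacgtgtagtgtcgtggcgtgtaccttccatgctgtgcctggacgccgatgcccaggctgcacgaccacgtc
Cyp51: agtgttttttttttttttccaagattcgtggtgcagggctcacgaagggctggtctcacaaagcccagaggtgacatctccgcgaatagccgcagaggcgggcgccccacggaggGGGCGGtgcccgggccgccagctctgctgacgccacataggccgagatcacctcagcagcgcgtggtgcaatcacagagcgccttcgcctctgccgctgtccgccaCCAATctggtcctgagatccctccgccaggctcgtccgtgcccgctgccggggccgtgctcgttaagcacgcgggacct

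Of the 8 genes, 6 were matched in the promoter table, namely Hmgcs1, Insig1, Lss, Idi1, Srebf2 and Cyp51. All 6 windows held an NF-Y box and an Sp1 box, which 37.4% and 35.7% of 32851 mouse promoters of the same length held. In Insig1 the E box began at -101 from the start, a motif of 7.15% of promoters, and it was in none of the other 5 windows. The exact sterol regulatory element was matched only in Hmgcs1 (1.24% of promoters), as was the core TGGGAA of Ikaros sites (25.6% of promoters). None of the searched motifs overlapped another. Such matches are letters in a window and not binding sites.

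No difference of the remaining enzymes passed the test. Sqle (ENSMUSG00000022351, mm9 chromosome 15, 59146632 to 59162747), squalene epoxidase, stood at 6.41, 5.85 and 6.19 TPM in WT ex vivo, 5.35, 7.53 and 6.80 TPM in cKO ex vivo, 6.81, 6.29 and 7.46 TPM in WT stimulated, and 8.74, 5.28 and 5.60 TPM in cKO stimulated. Its groups overlapped throughout, with a stimulation difference of -0.04 in WT (95% interval -0.33 to 0.25) and 0.26 in cKO (-0.03 to 0.56, adjusted p = 0.127). That in cKO passed only without cKO stimulated replicate 2 (0.35, adjusted p = 0.0459), and it was -0.21 with the 1 TPM filter and not called.

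Fdft1 (ENSMUSG00000021273, mm9 chromosome 14, 63763990 to 63796630), squalene synthase, the branch point towards sterols, stood at 4.48, 4.34 and 4.62 TPM in WT ex vivo and 5.74, 5.88 and 5.73 TPM in cKO ex vivo. The stimulated libraries held 5.60, 6.77 and 5.83 TPM in WT and 6.20, 5.27 and 4.16 TPM in cKO. In deposited TPM WT ex vivo lay below both cKO ex vivo and WT stimulated, but after scaling those groups overlapped, and the differences were 0.11 for genotype ex vivo (95% interval -0.22 to 0.43) and 0.20 for stimulation in WT (-0.13 to 0.52). With stimulation in cKO the groups overlapped as deposited and were apart after scaling, with the stimulated libraries higher. There Fdft1 differed by 0.14 (-0.19 to 0.46), and by -0.33 with the 1 TPM filter, neither called.

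Lss and Idi1 stayed under the filter of 5 TPM on the highest group mean, so their differences come from the same model with a filter of 1 TPM. The factors of that filter put the median of the 13318 genes at -0.23 with stimulation in WT and at -0.50 in cKO. Lss (ENSMUSG00000033105, mm9 chromosome 10, 75994333 to 76019883), lanosterol synthase, stood at 3.25, 2.72 and 2.61 TPM in WT ex vivo, 2.82, 4.47 and 3.36 TPM in cKO ex vivo, 3.78, 3.13 and 4.08 TPM in WT stimulated, and 4.24, 2.69 and 3.94 TPM in cKO stimulated. Its differences ranged from -0.15 to 0.03 over the 4 comparisons of groups, and the intervals lay within -0.41 and 0.30. With the 5 TPM factors its scaled mean went with stimulation from 3.03 to 3.37 TPM in WT and 3.17 to 4.14 TPM in cKO.

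Idi1 (ENSMUSG00000058258, mm9 chromosome 13, 8884852 to 8891641), which interconverts the 5-carbon isoprenoid units, stood at 2.22, 1.40 and 1.90 TPM in WT ex vivo, 2.62, 2.52 and 1.48 TPM in cKO ex vivo, 1.23, 1.72 and 2.21 TPM in WT stimulated, and 2.59, 1.34 and 1.12 TPM in cKO stimulated. Its stimulation differences were -0.36 in WT and -0.42 in cKO with an SE of 0.23 (95% intervals -0.87 to 0.14 and -0.92 to 0.09), and neither passed the test. With the 5 TPM factors its scaled mean went from 1.93 to 1.59 TPM in WT and 1.99 to 1.83 TPM in cKO. How much of the spread of Idi1 is counting error was not tested.

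With stimulation in WT, 1 of the 5 members tested at 5 TPM was lower and none was higher, where 32.0% of all 13318 genes were called in either direction and 19.3% were called lower. With stimulation in cKO the count was again 1 of 5 lower, against 43.8% of all genes in either direction and 26.5% lower. The median difference of the 5 members was -0.31 in each genotype, beside 0.00 in WT and -0.01 in cKO over all genes tested. At an unadjusted limma p under 0.05 there were 2 members in WT and 3 in cKO, beside 5661 and 6993 of 13318 genes. Voom called 2 and 3 members, beside 4872 and 6238 of these genes.

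No member differed between genotypes by a called amount. Ex vivo, limma called none of the 5 members, where 5.29% of all genes were called, and after stimulation it again called none, where 6.93% were called. Voom called none in either comparison, where it called 1203 and 1247 of 13318 genes. In each comparison 1 member, Insig1, had an unadjusted limma p under 0.05, beside 2384 genes ex vivo and 3166 after stimulation. Insig1 differed between cKO and WT by -0.28 ex vivo (95% interval -0.51 to -0.05, unadjusted p = 0.0213, adjusted p = 0.178) and by -0.28 after stimulation (-0.51 to -0.05, unadjusted p = 0.0213, adjusted p = 0.137). Of 13318 genes tested, 14.5% were as low or lower in this difference ex vivo and 16.3% after stimulation. After scaling, the 3 cKO libraries lay below the 3 WT libraries in both states, whereas in deposited TPM they overlapped ex vivo. With TPM as deposited the difference of Insig1 was -0.04 ex vivo and -0.55 after stimulation, and with the 1 TPM filter it was -0.29 and -0.57, none of them called. Ex vivo the summed B cell markers were 9.49 to 12.7 TPM in WT and 16.1 to 22.0 TPM in cKO, and the summed NK cell markers 22.5 to 24.6 TPM in WT and 43.4 to 47.8 TPM in cKO, without overlap. Most of the gap in the NK cell sum was that of Nkg7, at means of 19.8 TPM in WT and 41.0 TPM in cKO. Nkg7 was 0.78 higher in cKO ex vivo (adjusted p = 0.0304). Ncr1 had means of 1.72 and 2.17 TPM, and Klrb1c went the other way, at 2.05 and 1.71 TPM. Most of the gap in the B cell sum was that of Cd79b, at means of 5.94 TPM in WT and 11.9 TPM in cKO. After stimulation the summed B cell markers were 8.65 to 13.6 TPM in WT and 12.5 to 16.9 TPM in cKO, and the NK cell sums overlapped as well. There Cd79b, the 1 B cell marker tested, was 0.96 higher in cKO (adjusted p = 0.0283, lost without WT stimulated replicate 1 or 2 or cKO stimulated replicate 1 or 3). Of the 7 Treg markers, Foxp3 and Il2ra were also higher in cKO after stimulation, by 0.96 (adjusted p = 0.00847) and 0.80 (adjusted p = 0.00972), and 5 were not called. Deposited means in WT and cKO fell for Cd3e (442 and 309 TPM), Ikzf2 (161 and 123 TPM) and Cd4 (146 and 139 TPM). They rose for Ctla4 (224 and 230 TPM) and Tnfrsf18 (180 and 192 TPM). The calls of Cd79b, Foxp3 and Il2ra were lost with the 1 TPM filter and with TPM as deposited. The part of these markers in the genotype differences of the members and of the other genes below was not tested. The 2 genotype comparisons and the 2 stimulation comparisons share libraries, and their values are therefore not independent of each other.

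For the other members the genotype difference lay between -0.14 and 0.12 ex vivo and between -0.11 and 0.17 after stimulation. The interaction, the difference between the stimulation effects of cKO and WT, was called for none of the 5 members, where 1.10% of all genes were called. No member had an unadjusted limma p under 0.05, beside 1925 of 13318 genes. The interaction was 0.00 for Insig1 (95% interval -0.32 to 0.32), -0.01 for Srebf2 (-0.43 to 0.41) and -0.08 for Cyp51 (-0.59 to 0.43), and intervals of this width do not show that the genotypes responded alike. With TPM as deposited these interactions were -0.51, -0.53 and -0.57, and with the 1 TPM filter -0.27, -0.29 and -0.35, none called.

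**Figure D2:**
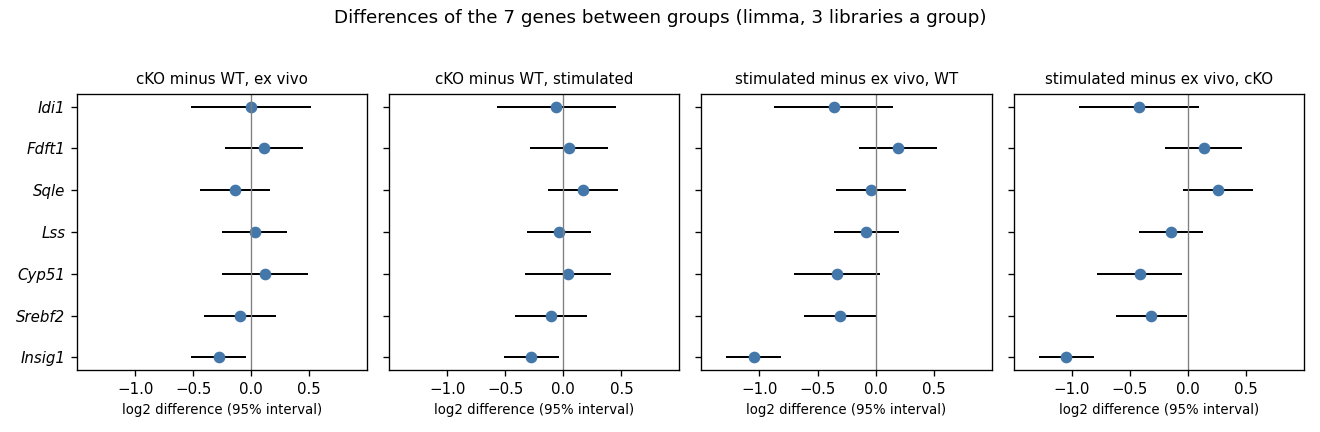
Log2 differences (horizontal axis, log2 of scaled TPM + 1) of the 7 genes (vertical axis) in 4 comparisons of groups; points are limma estimates, and lines are 95% intervals from 3 libraries a group. The intervals of Insig1 with stimulation, -1.28 to -0.82 in both genotypes, lie apart from those of the other genes except Idi1. The wider intervals of Idi1 reach down to -0.87 in WT and -0.92 in cKO. Idi1 and Lss come from the fit with the 1 TPM filter, and the other genes from that with 5 TPM. With the factors of the 1 TPM filter Insig1 itself was at -1.30 in WT and -1.57 in cKO.

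Over the 12 libraries, Pearson's r of the scaled log2 levels was 0.88 between Srebf2 and Cyp51, 0.83 between Insig1 and Srebf2 and 0.73 between Insig1 and Cyp51, and 0.89, 0.77 and 0.77 after removal of the group means. Sqle ran the other way, with r of -0.55 against Srebf2 and -0.51 against Cyp51. These values share libraries and scaling factors and are given as a description. The 10 genes whose pattern was most like the mean of the 5 members had r from 0.83 to 0.91 over the 12 libraries. They were led by the small nuclear RNA U5, the small nucleolar RNAs Snord8 and SNORD45 and the mitochondrial RNA-binding gene Lrpprc, followed by 1810032O08Rik, BC067068, 1110008L16Rik, Mterfd1, 7SK and AC127028.1.

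Most other enzymes of the pathway were measured in the same libraries. Of 15 such genes, 14 were tested. With stimulation in WT, 4 were lower, 1 was higher and 9 were not called, with a median difference of -0.20, where 32.0% of all genes were called and 19.3% were lower. With stimulation in cKO, 4 were lower, none was higher and 10 were not called, with a median of -0.01, where 43.8% of all genes were called and 26.5% were lower. Lbr, whose product has sterol reductase activity and anchors chromatin at the nuclear envelope, fell by 0.69 in WT and 0.82 in cKO, and Nsdhl, a sterol demethylation enzyme, fell by 0.73 and 0.60. Dhcr7, the last step to cholesterol, fell by 0.41 and 0.44, its call in WT being lost without WT ex vivo replicate 2 or WT stimulated replicate 3 (adjusted p up to 0.0535). Acat2, an acetoacetyl-CoA thiolase at the entry of the pathway, fell by 0.48 in WT alone, and without WT ex vivo replicate 2, WT ex vivo replicate 3 or WT stimulated replicate 1 it was not called (adjusted p up to 0.0704). Hsd17b7, a sterol ketoreductase, fell by 0.43 in cKO alone, a call lost without cKO ex vivo replicate 1 or 3 or cKO stimulated replicate 1 or 3 (adjusted p up to 0.0929). Sc5d, sterol desaturase, rose by 0.41 in WT, a call lost without WT stimulated replicate 2 (adjusted p = 0.0682). The difference of these effects between genotypes was called for none of the 14. With TPM as deposited the calls of Acat2, Lbr, Nsdhl, Dhcr7 and Sc5d in WT were lost, that of Sc5d also with the 1 TPM filter, and those in cKO were kept. Nsdhl and Hsd17b7 reached the filter of 5 TPM through the ex vivo groups alone, where they were higher, so their entry to the test was not independent of the fall.

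**Figure D3:**
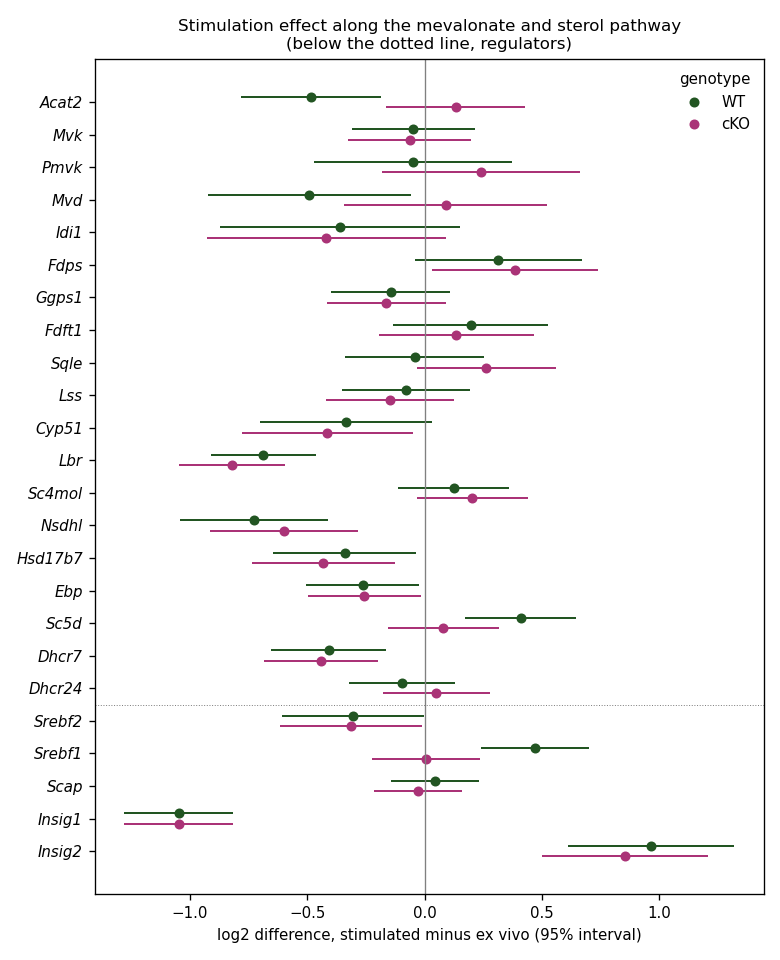
Stimulation effect (horizontal axis, log2 difference, stimulated minus ex vivo) for enzymes in pathway order and, under the dotted line, regulators (vertical axis), in WT (green) and cKO (purple); points are limma estimates and lines 95% intervals. Insig1, at -1.05 in both genotypes, and Insig2, at 0.97 and 0.85, lie at opposite ends. Idi1 comes from the fit with the 1 TPM filter, and the other genes from that with 5 TPM. Sc4mol is the older symbol of Msmo1.

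The paralog Insig2, whose protein also retains SCAP, moved in the opposite direction. Insig2 stood at 3.07, 3.32 and 3.89 TPM in WT ex vivo and 3.55, 3.38 and 4.52 TPM in cKO ex vivo, against 9.17, 8.0 and 9.03 TPM in WT stimulated and 8.10, 6.45 and 4.47 TPM in cKO stimulated. The groups were apart in WT, and in cKO 1 stimulated library lay within the ex vivo range. Insig2 rose by 0.97 in WT (SE 0.16, adjusted p = 0.000947) and by 0.85 in cKO (SE 0.16, adjusted p = 0.0017), calls kept in all 12 fits that left out a library and lost with the 1 TPM filter (0.76, adjusted p = 0.0643, and 0.40, adjusted p = 0.244). Insig2 reached the filter of 5 TPM through the stimulated groups alone, where it was higher, so its entry to the test was not independent of the rise. The ratio of Insig1 to Insig2 within a library was 14.6 ± 4.76 in WT ex vivo and 12.4 ± 1.87 in cKO ex vivo, against 3.01 ± 0.280 after stimulation of WT and 2.83 ± 0.0718 after stimulation of cKO (SD, n = 3). The ratio fell 4.70-fold in WT and 4.35-fold in cKO, with no overlap of libraries (exact permutation p = 0.1 in each, the smallest possible). This ratio was chosen after the values of both genes had been seen.

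**Figure D4:**
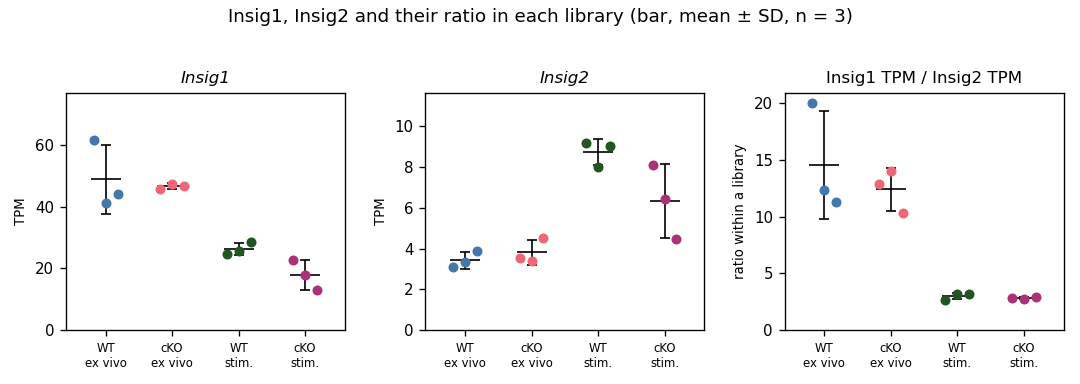
Deposited TPM of Insig1 (left) and Insig2 (middle) and the ratio of the 2 within each library (right, no unit), by group; points are libraries and bars the mean ± SD (n = 3). The ratio is 10.4 to 20.0 in the ex vivo libraries and 2.68 to 3.19 in the stimulated libraries.

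Of 9 further genes of sterol sensing, 8 were tested. With stimulation in WT, 3 were higher and 2 lower, beside 32.0% of all genes called, and in cKO 1 was higher and 2 lower, beside 43.8%. Between genotypes 1 of 8 was called, after stimulation (6.93% of all genes). Scap, the escort of SREBP, did not change by a called amount (0.05 in WT and -0.03 in cKO). Rnf139, an endoplasmic reticulum ubiquitin ligase, fell by 0.45 in WT and 0.50 in cKO, in all 12 fits that left out a library. Srebf1, the relative of Srebf2 that directs fatty acid synthesis, rose by 0.47 in WT (SE 0.10, adjusted p = 0.0051) and differed by 0.01 in cKO. The stimulated libraries held 35.6, 33.4 and 39.6 TPM in WT and 26.1, 25.3 and 15.7 TPM in cKO, with no overlap, and Srebf1 was 0.42 lower in cKO on the log2 scale (SE 0.10, adjusted p = 0.0336). That genotype call was lost in 7 of 12 fits that left out a library (WT ex vivo replicate 3, cKO ex vivo replicate 3, all 3 WT stimulated replicates, and cKO stimulated replicates 1 and 3), with adjusted p up to 0.148, and the interaction of Srebf1 was not called (-0.46, adjusted p = 0.161). The other calls were near the threshold. Mbtps1, a protease that cuts SREBP, fell by 0.38 in cKO, lost without cKO ex vivo replicate 1 or 3 or cKO stimulated replicate 1 or 3. Syvn1, a ubiquitin ligase, fell by 0.46 in WT, lost in 8 of 12 such fits, with adjusted p up to 0.172. With the 1 TPM filter the calls of Srebf1, Rnf139 and Syvn1 in WT were lost, as was the genotype call of Srebf1. Those of Rnf139 and Syvn1 in WT and the genotype call of Srebf1 were lost with TPM as deposited, and those of Syvn1 and the genotype call of Srebf1 with the replicate block. Syvn1 was not called with median of ratios scaling either.

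Of 10 genes of uptake and intracellular transport, 7 were tested. With stimulation in WT, 1 was higher and 2 were lower (32.0% of all genes called), and in cKO 1 was higher and 1 lower (43.8%). Mylip, a ubiquitin ligase and LXR target, fell by 0.63 in WT and 0.74 in cKO, and Stard3, a sterol carrier of late endosomes, rose by 0.54 and 0.78. Npc2, which moves cholesterol out of lysosomes, fell by 0.55 in WT. With the 1 TPM filter the calls of Npc2 and Stard3 were lost, and with TPM as deposited those of Mylip and Npc2 in WT and Stard3 in cKO.

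Between genotypes, no gene of this list was called ex vivo and 1 of 7 was lower in cKO after stimulation, beside 6.93% of all genes called. Lipa, lysosomal acid lipase, which frees cholesterol from its esters, stood at 36.9, 31.7 and 43.8 TPM in WT stimulated and 21.2, 23.3 and 16.1 TPM in cKO stimulated and was 0.58 lower in cKO (SE 0.11, adjusted p = 0.0093). This call was lost with the 1 TPM filter.

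Of 11 genes of efflux, oxysterol response and esterification, 7 were tested. With stimulation 1 was higher, 2 were lower and 4 were not called in each genotype, beside 32.0% of all genes called in WT and 43.8% in cKO. The 2 that fell were the exporters Abcg1 and Abca1, which were also the 2 called between genotypes after stimulation (6.93% of all genes). Abcg1, an exporter of cholesterol and a target of the oxysterol receptors LXR, stood at 68.4, 45.9 and 56.4 TPM in WT ex vivo, 62.8, 65.3 and 67.1 TPM in cKO ex vivo, 22.8, 19.7 and 22.9 TPM in WT stimulated, and 11.6, 11.3 and 8.33 TPM in cKO stimulated. Stimulated libraries lay below ex vivo libraries in both genotypes, and cKO stimulated lay below WT stimulated. Abcg1 fell by 1.52 with stimulation in WT (SE 0.08, adjusted p = 8.16e-07) and by 2.23 in cKO (SE 0.08, adjusted p = 1.01e-07), and after stimulation it was 0.74 lower in cKO (SE 0.08, adjusted p = 0.000391), a call lost with the 1 TPM filter (adjusted p = 0.0874). Abca1, the exporter to apolipoproteins, stood at 7.12, 6.14 and 7.12 TPM in WT stimulated and 4.17, 3.50 and 3.91 TPM in cKO stimulated. Abca1 fell by 0.44 with stimulation in WT, lost without WT ex vivo replicate 1 or WT stimulated replicate 3 (adjusted p up to 0.0536), and by 0.73 in cKO. The genotype difference of Abca1 after stimulation, -0.44, only just passed (adjusted p = 0.049) and was lost in 11 of 12 fits that left out a library, all except that without cKO stimulated replicate 3, with adjusted p up to 0.159. Lpcat3, a phospholipid acyltransferase and LXR target, rose by 0.60 in WT and 0.48 in cKO, the latter turning to -0.02 with the 1 TPM filter, whose factors lower all stimulation differences in cKO. Both calls of Lpcat3 and the genotype call of Abca1 were lost with that filter. The calls of Abca1 in WT and of Lpcat3 in cKO were lost with TPM as deposited. The genotype call of Abca1 was also lost with TPM as deposited, median of ratios scaling, a pseudocount of 0.1 and the replicate block.

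**Figure D5:**
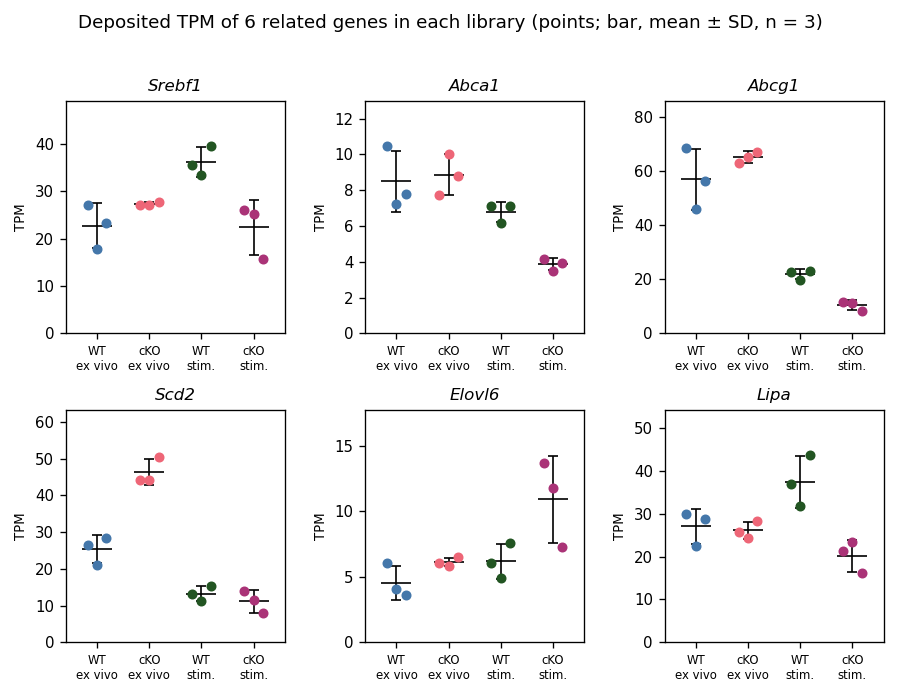
Deposited TPM (vertical axis, from 0, a separate scale for each gene) of 6 genes of sterol control, lysosomal release, efflux and fatty acid synthesis in each library, by group; points are libraries and bars the mean ± SD (n = 3). Abcg1 lies at 45.9 to 68.4 TPM ex vivo, 19.7 to 22.9 TPM in WT stimulated and 8.33 to 11.6 TPM in cKO stimulated.

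Fatty acid and isoprenoid genes share regulators and precursors with the sterol pathway. Scd2, a fatty acid desaturase, stood at 26.6, 21.2 and 28.5 TPM in WT ex vivo and 44.2, 44.3 and 50.5 TPM in cKO ex vivo, and was 0.62 higher in cKO ex vivo (SE 0.11, adjusted p = 0.0089), the only gene of 8 tested in this list to be called there, beside 5.29% of all genes. The summed B cell and NK cell markers were higher in cKO in the same libraries, mostly through Cd79b and Nkg7, while the mean of Klrb1c was lower. Scd2 fell with stimulation by 1.08 in WT and 1.68 in cKO, and stood at 11.2 to 15.4 TPM in WT stimulated and 7.88 to 14.0 TPM in cKO stimulated. Elovl6, a fatty acid elongase, stood at 6.03, 4.87 and 7.58 TPM in WT stimulated and 13.7, 11.8 and 7.26 TPM in cKO stimulated, which overlap, and after scaling it was 0.97 higher in cKO (SE 0.14, adjusted p = 0.0028), a call lost with TPM as deposited. Elovl6 rose by 0.99 with stimulation in cKO and differed by 0.21 in WT, and its interaction was not called (0.79, adjusted p = 0.10). Elovl5, another elongase, was 0.52 lower in cKO after stimulation, lost without WT stimulated replicate 2 or 3 or cKO stimulated replicate 1 or 3 (adjusted p up to 0.0925), and fell by 0.42 with stimulation in cKO, lost without cKO stimulated replicate 3 (adjusted p = 0.0618). Elovl1, a long-chain elongase, rose by 0.37 in WT and 0.36 in cKO (-0.16 in cKO with the 1 TPM filter), lost without WT stimulated replicate 2 (adjusted p = 0.0602) and cKO stimulated replicate 2 (adjusted p = 0.0591) respectively. Fads1, a fatty acid desaturase, rose by 0.63 in WT. With stimulation 2 of 8 fatty acid genes were higher and 1 lower in WT (32.0% of all genes called), and 2 were higher and 2 lower in cKO (43.8%). After stimulation 1 was higher and 1 lower in cKO than in WT (6.93%). In this list the calls of Scd2 with stimulation and of Elovl5 with stimulation in cKO were kept with the 1 TPM filter, and the others were lost. The genotype calls of Scd2, Elovl5 and Elovl6 and both calls of Elovl1 were lost with TPM as deposited.

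Of 12 genes that use isoprenoids, 10 were tested. Between genotypes 2 of 10 were lower in cKO ex vivo and 2 after stimulation, beside 5.29% and 6.93% of all genes called. With stimulation 2 were higher and none lower in WT (32.0% of all genes called), and 2 were higher and 3 lower in cKO (43.8%). Rabggta, the alpha subunit of the enzyme that prenylates Rab proteins, was 0.58 lower in cKO after stimulation (SE 0.08, adjusted p = 0.0015) and fell by 0.45 with stimulation in cKO. Its genotype difference ex vivo, -0.30 (adjusted p = 0.0464), was lost in 10 of 12 fits that left out a library, all except those without WT ex vivo replicate 3 and cKO stimulated replicate 3, with adjusted p up to 0.146. Rabggtb, the beta subunit, fell by 0.63 with stimulation in cKO and was 0.40 lower in cKO after stimulation, lost without WT ex vivo replicate 3, any WT stimulated replicate, or cKO stimulated replicate 1 or 3 (adjusted p up to 0.125). Fntb, the beta subunit of farnesyltransferase, was 0.47 lower in cKO ex vivo, lost without cKO ex vivo replicate 1 (adjusted p = 0.0528). Icmt, which methylates prenylated proteins, rose by 0.64 in WT and 0.43 in cKO (-0.08 in cKO with the 1 TPM filter), and Fnta, the alpha subunit shared by the farnesyl and geranylgeranyl enzymes, rose by 0.60 and 0.34 (-0.19 in cKO with that filter). The call of Fnta in cKO was lost without cKO ex vivo replicate 1 or 2 or any cKO stimulated replicate (adjusted p up to 0.0809). Of the calls named in this list, only the falls of Rabggta and Rabggtb with stimulation in cKO were kept with the 1 TPM filter. The calls of Fntb, of Rabggta ex vivo, of Rabggtb between genotypes and of Fnta and Icmt in cKO were lost with TPM as deposited, and with the replicate block those of Rabggta ex vivo and Rabggtb between genotypes. Voom did not call Rabggtb between genotypes either.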

How the data were processed

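Treg RNA from 12 libraries in 4 groups of 3 was depleted of ribosomal RNA and sequenced as strand-specific paired ends of 51 bp. The authors aligned reads to mm9 with STAR 2.6.0c and counted them over exons of Ensembl release 67 with htseq-count 0.6.1, on the reverse strand. The deposited signal is TPM, and a log2 column was computed by the authors after adding the TPM of 1 read. Whole reads recovered from these columns (99.9977% of 434664 values within 0.01 of a whole number) gave the depth, 8208659 to 20247649 reads per library, and served otherwise only for voom. Libraries carried no molecular identifiers, so depth speaks to counting error only. A second table holds the authors' own tests (log2 fold changes, p-values and FDR) and was not used.

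TPM were divided by TMM factors computed on the tested genes (trims of 30% for M and 5% for A), 1 was added as pseudocount, and limma 3.58.1 in R 4.3.3, with a mean-variance trend, was fitted to all libraries with the 4 groups as the only term. A gene entered the test if its mean reached 5 TPM in some group (13318 genes) and was called at a Benjamini-Hochberg adjusted p under 0.05 over all genes of a comparison. Fold changes are on the log2(scaled TPM + 1) scale and understate changes of low genes. The procedure was run on simulated data into which no shift of Gm10800 or of the background was put. That run does not bear on how the calls depend on filter or scaling. Tables were handled with Python 3.11.15, numpy 2.4.6 and pandas 2.3.3. Promoters came from RefSeq (GRCm38.p6) and gene positions from an mm9 annotation.

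The members, the gene lists and the filter of 5 TPM were chosen with earlier results of these data known, and the filter changes the number of calls. All members with a row were named. From each wider list, genes called in a comparison were named, at most 4 per list and comparison by size of the difference, with Srebf1, Insig2, Scap and Abca1 whatever their values, and the 10 genes most correlated with the mean of the members. Some genes of the lists are not reported here and are left out of the list counts. Alternatives were other filters, scalings and pseudocounts, voom, a replicate block and each library left out. Subtraction of the silent receptor genes' level was added after seeing the data.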

Additional observations from a re-analysis of the deposited data

Results flagged for a closer look

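The stimulation effect on Abcg1 differed between genotypes by limma's test of the interaction. Abcg1 fell by 2.23 on the log2 scale with stimulation in cKO and by 1.52 in WT, a difference of -0.71 (SE 0.11, adjusted p = 0.0163). All 3 cKO stimulated libraries, at 8.33 to 11.6 TPM, lay below all 3 WT stimulated libraries, at 19.7 to 22.9 TPM, while the ex vivo libraries of the genotypes overlapped. The call was lost without WT ex vivo replicate 3, cKO ex vivo replicate 1, cKO ex vivo replicate 3, WT stimulated replicate 2 or cKO stimulated replicate 1, with adjusted p up to 0.0602. It was also lost with the 1 TPM filter (-0.97, adjusted p = 0.546), with no filter (-0.99, adjusted p = 0.492), with TPM as deposited (-1.22, adjusted p = 0.0564) and with the replicate block (adjusted p = 0.0543). The smallest adjusted p over the alternatives was 0.00455, with voom.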

How the results depend on the processing

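The fall of Insig1 with stimulation was called in both genotypes under all alternatives run. Of 680 values of members under the alternatives, 669 kept their side of the threshold, 11 newly passed and 0 calls were lost. The sign changed in 74 of the 680, none of them called under either setting (smallest adjusted p 0.225), among them Sqle (-0.21 and -0.20) and Fdft1 (-0.33 and -0.32) with stimulation in cKO under the 1 TPM filter and no filter. Members called with stimulation in cKO numbered 1, and 3 with the 1 TPM filter, 2 with no filter, 2 with TPM as deposited, 3 with voom and 1 to 3 with 1 library left out. In WT the number was 1, and 2 with voom. Tested genes numbered 13318, and 33873 with the 1 TPM filter and 36222 with no filter. Over all tested genes, calls for genotype ex vivo numbered 704, and 57 with the 1 TPM filter, 56 with no filter, 273 with TPM as deposited, 1203 with voom and 324 to 740 with 1 library left out. For genotype after stimulation they numbered 923, and in the same order 68, 68 and 306, and 398 to 1057 with 1 library left out. For stimulation in WT they numbered 4262, and 1838, 1694 and 1943, 4872 with voom and 3256 to 4387 with 1 library left out. For stimulation in cKO they numbered 5835, and 5903, 5742 and 4674, 6238 with voom and 4098 to 5992 with 1 library left out. For the interaction they numbered 147, and 0, 0 and 67, 395 with voom, 65 with the replicate block and 50 to 203 with 1 library left out. Beside these counts of 0, limma had 2406 genes with the 1 TPM filter and 2686 with no filter at an unadjusted p under 0.05. The cause of these shifts was not tested.

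Same-numbered libraries of different groups had correlations of -0.21 to 0.26 in their deviations from the group means. Each ex vivo library of WT correlated best with the cKO library of its own number, a hint from the data and not from the design, and the numbers were not taken as pairs. With the replicate block, 0, 0, 1, 1 and 0 members were called in the 5 comparisons (genotype ex vivo and stimulated, stimulation in WT and cKO, interaction), as without it.

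TPM as deposited put the median of tested genes at 0.21, -0.30, 0.18, -0.31 and -0.52 in these comparisons. The higher and lower calls went from 482 and 222 to 260 and 13, from 439 and 484 to 69 and 237, from 1688 and 2574 to 1175 and 768, from 2305 and 3530 to 558 and 4116, and from 60 and 87 to 6 and 61. With the 1 TPM filter the stimulation calls were 304 higher and 1534 lower in WT and 757 and 5146 in cKO. Of 54 calls in the wider lists, 32 were lost with the 1 TPM filter, 32 with no filter, 26 with TPM as deposited, 7 with the block and 20 with some library left out. Among called genes of the wider lists, those 2 filters turned the sign with stimulation in cKO for Lpcat3 (-0.016 and -0.0057), Elovl1 (-0.16 and -0.15), Fnta (-0.19 and -0.18) and Icmt (-0.077 and -0.067). Idi1 had 28 to 119 reads per library, the lowest depth among the members.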
